A study of Macaca mulatta with 7 samples.

Results

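The genes described here are 10 members of the transforming growth factor beta (TGF-beta) and bone morphogenetic protein (BMP) pathways, TGFB1, TGFB2, LTBP1, TGFBR1, TGFBR2, BMPR1B, SMAD2, SMAD3, SMAD7 and BMPER. They were chosen by symbol, with their levels in the cell classes of these libraries already known, and all 10 were found among the 28966 genes counted. The levels and ratios below are therefore a description of the genes that were picked and not a test. The data are single-nucleus RNA counts from spinal cord of adult rhesus monkeys, with 7 libraries and 1 library per group. The intact cervical, thoracic and lumbar libraries came from an untreated monkey 5 years old. The 4 injured libraries were lumbar cord far below a complete transection of the thoracic cord, taken 7 and 14 days post-injury (dpi) at 7 years of age, and 30 dpi and 6 months post-injury at 6 years of age. The lumbar tissue itself was not cut.

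No group had a second library, so no test between groups was possible and no p-value is given. The 3 intact libraries were segments of 1 uninjured animal by the study's account, so their range holds no spread between animals. Time after injury, animal, age and preparation of the library cannot be told apart. Levels are given as CPM, the UMIs of a gene per 1000000 UMIs of all nuclei of a class in a library, where a UMI marks 1 captured RNA molecule. Brackets give exact 95% intervals, which cover counting error only. After filters, 63733 nuclei of 69332 barcodes remained, with medians of 3180 UMIs per nucleus in the 6-month library and 4830 to 7312 in the others. Library pairs shared 12 to 36 barcodes, at most 0.379% of the smaller library. Classes were named from marker genes and are called "like" for that reason. Microglia-like nuclei numbered 1633 to 2527 in the intact libraries and 2320 to 4565 in the injured ones, whereas astrocyte-like nuclei numbered 889 to 1740 and 100 to 257.

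TGF-beta ligands are secreted in a latent complex that is anchored outside the cell by latent TGF-beta binding proteins. The active ligand brings together a type II receptor (TGFBR2) and a type I receptor (TGFBR1), which phosphorylates SMAD2 and SMAD3, and these enter the nucleus with SMAD4 to regulate genes, among them SMAD7, which inhibits the receptor. BMPs signal through other type I receptors such as BMPR1B and through other SMADs, and secreted proteins such as BMPER bind BMPs and modulate them. In the central nervous system TGF-beta is known for maintaining the identity of microglia, and BMPs are known for favouring astrocytes over oligodendrocytes during development.

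The members differed in the class where their level was highest. The order is of CPM within a class and not of UMIs contributed. LTBP1, for example, had 19037 UMIs in neuron-like and 11657 in astrocyte-like nuclei over the 7 libraries. Among the 5 main classes, TGFB1, TGFBR1, TGFBR2, SMAD7 and SMAD3 were highest in microglia-like nuclei, and TGFB2, LTBP1 and BMPR1B in astrocyte-like nuclei, in 7 of 7 libraries each. SMAD2 was spread over all classes, with microglia-like above oligodendrocyte-like nuclei in 6 of 7 libraries at ratios between 0.948 and 1.21. BMPER was highest in neuron-like nuclei in the 3 intact libraries and in oligodendrocyte precursor cell (OPC)-like nuclei in the 4 injured ones. Over the class next in order in intact cord the smallest lead in any library was 1.22-fold for LTBP1 (over OPC-like nuclei) and 1.29-fold for SMAD3 (also over OPC-like nuclei), and it was 54.3-fold for TGFBR2 (over neuron-like nuclei). Astrocyte-like nuclei came closer at 7 dpi, at 83.4% of the microglia-like level for SMAD3 and 8.16% for TGFBR2.

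**Figure D1:**
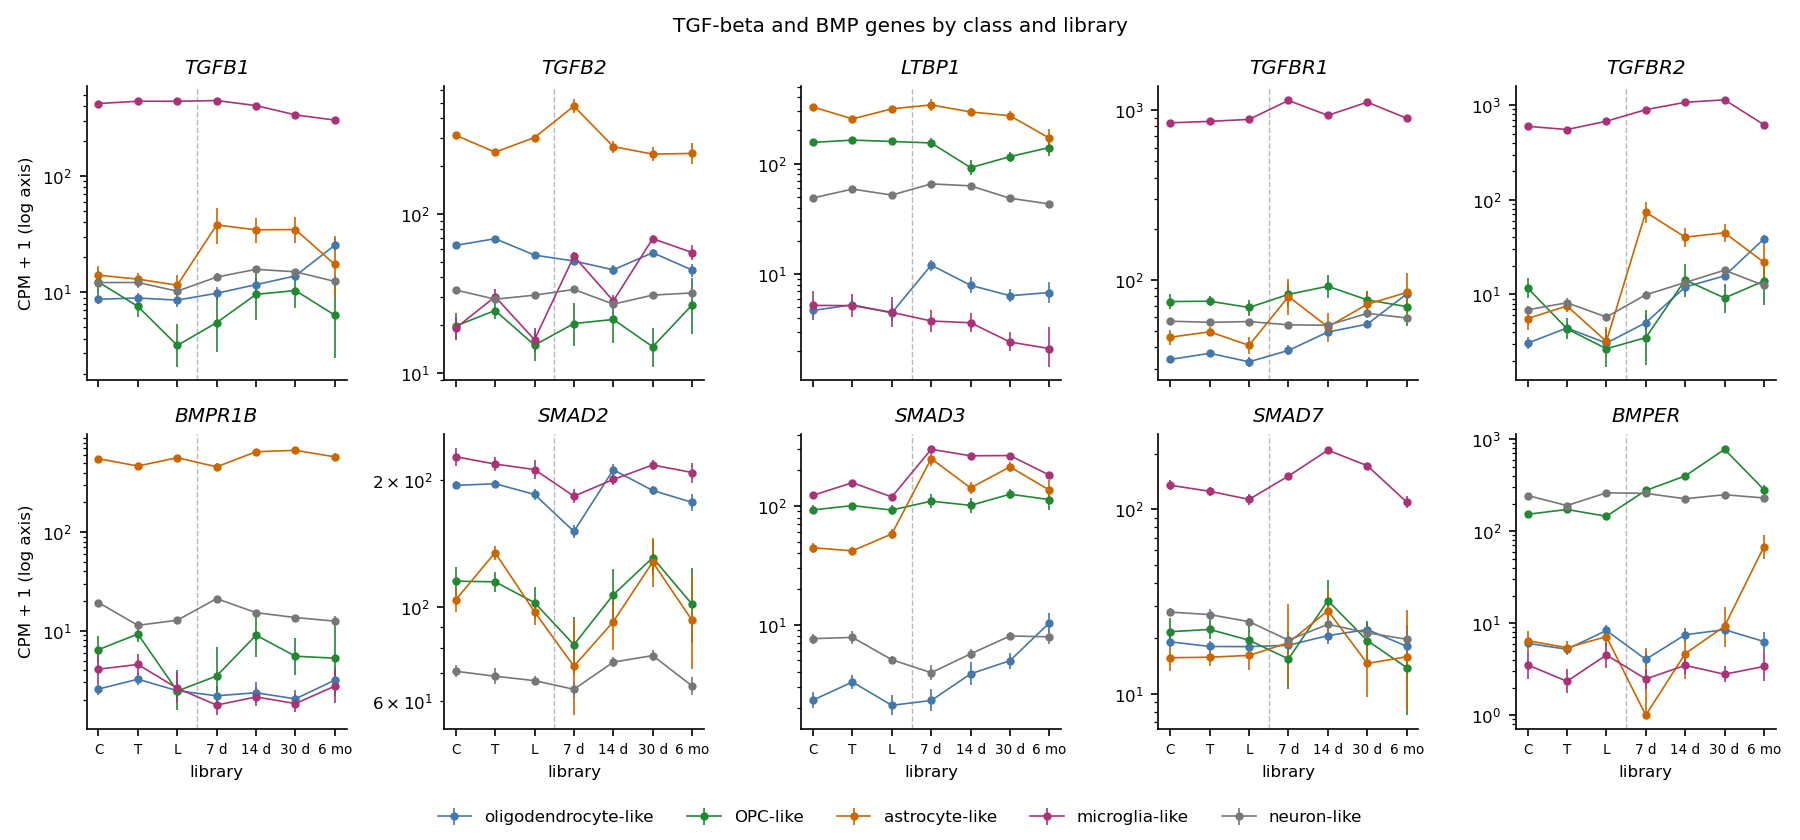
Level of each member (CPM + 1, log axis) in 5 classes across the intact cervical (C), thoracic (T) and lumbar (L) libraries and the injured lumbar libraries at 7, 14 and 30 days and 6 months, with exact Poisson 95% intervals as bars and lines joining the points of a class. SMAD3 in astrocyte-like nuclei lies between 40.9 and 57.2 CPM in the intact libraries and between 135 and 250 CPM in the injured ones, and BMPER in OPC-like nuclei peaks at 775 CPM at 30 dpi.

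A gene was counted as higher in an injured library when its CPM was at least 2-fold that of intact lumbar cord, the interval of the ratio left out 1 and the CPM lay outside the range of the 3 intact libraries, and as lower by the same rule in the other direction. Of the members, TGFBR2 and SMAD3 were higher in all 4 injured libraries in astrocyte-like nuclei, 2 of 10, where 1.32% of the 11718 genes tested were, and 0 of 10 were lower in all 4, where 0.307% were. No member was higher or lower in all 4 injured libraries in any of the other classes. The shares over all genes tested there were 1.8% higher and 0.58% lower in oligodendrocyte-like, 0.497% and 0.244% in OPC-like, 2.2% and 1.37% in microglia-like and 0.884% and 0.368% in neuron-like nuclei. The members were chosen on these same contrasts, so nothing is read from the comparison with these shares. BMPR1B had under 50 UMIs over the lumbar libraries in OPC-like nuclei and was not tested there. The median log2 ratio of the members in astrocyte-like nuclei was 0.66 at 7 dpi and 0.28, 0.41 and 0.33 at 14 dpi, 30 dpi and 6 months, beside 0.16, 0.07, 0.07 and 0.15 over all genes tested. It was 0.12, 0.35, 0.48 and 0.65 in oligodendrocyte-like nuclei (all genes 0.11, -0.0019, 0.0079 and 0.17) and 0.26, 0.57, 0.36 and 0.30 in OPC-like nuclei (all genes 0.11, 0.014, 0.016 and 0.15). In microglia-like nuclei it was 0.20, -3.9e-05, 0.19 and -0.036 (all genes 0.047, -0.087, -0.072 and 0.24), and in neuron-like nuclei 0.051, 0.17, 0.13 and 0.0081 (all genes 0.053, -0.029, -0.0044 and 0.074). The members' median lay below that of all genes in microglia-like nuclei at 6 months and in neuron-like nuclei at 7 dpi and 6 months.

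**Figure D2:**
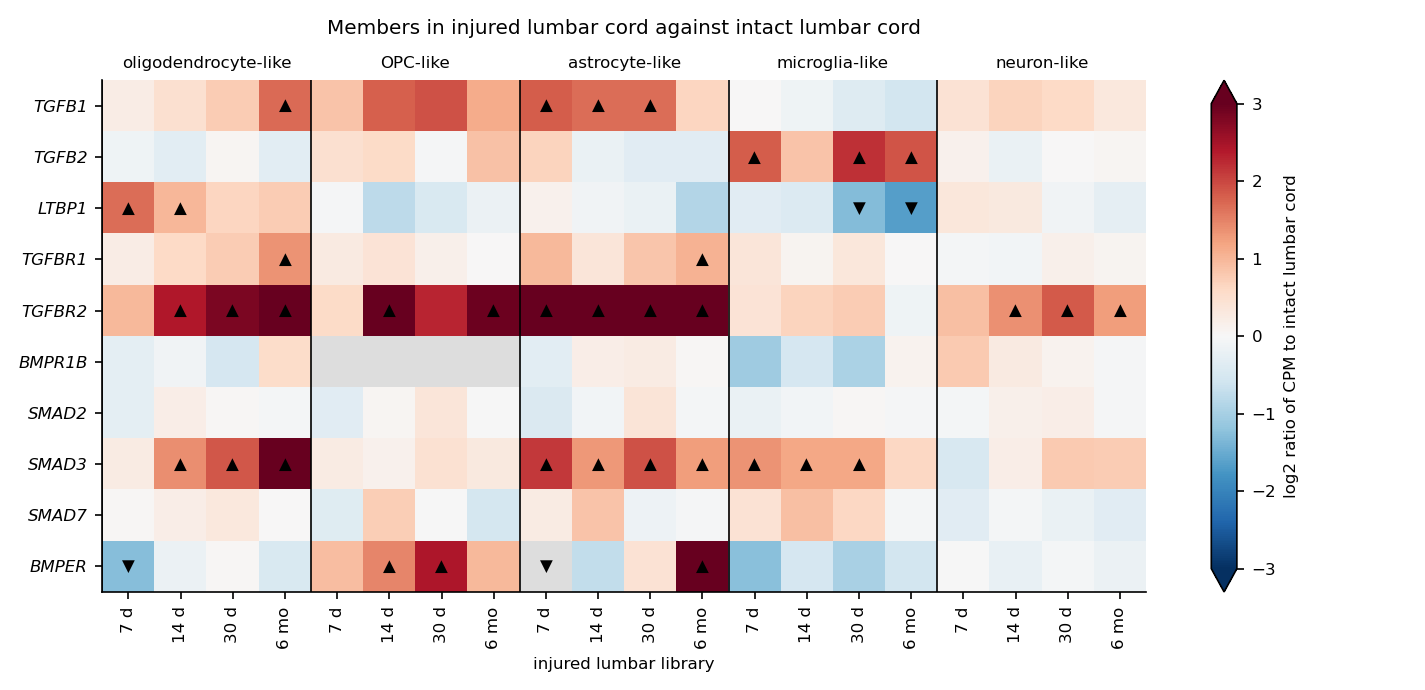
Log2 ratio of each member's CPM in an injured lumbar library to intact lumbar cord (colour scale, ends at 3 and beyond), by class and library, with triangles where the 2-fold rule was met upwards or downwards and grey where the gene was not tested or had 0 UMIs. TGFBR2 and SMAD3 in astrocyte-like nuclei carry a triangle in all 4 injured libraries, and SMAD2 and SMAD7 carry none in any class.

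TGFB1 (ENSMMUG00000008142, chr19:40574859-40598883, minus strand, Mmul_10) encodes the TGF-beta ligand best known from immune cells. In microglia-like nuclei its level in the cervical, thoracic and lumbar libraries of intact cord was 419, 439 and 439 CPM. After injury it was 445, 402, 335 and 302 CPM in order of time, 7, 14 and 30 dpi and 6 months, the order kept for all values below. The last 3 libraries lay below the intact range, and the ratio to intact lumbar cord at 6 months was 0.688 [0.649 to 0.728], which stayed inside the 2-fold limit. In T cell-like nuclei, which reached 50 nuclei in 4 libraries, it was at 190 CPM in intact thoracic cord and at 446, 411 and 330 CPM at 7, 14 and 30 dpi. The 7 microglia markers summed to 1224 CPM in the same nuclei of intact thoracic cord and to 2417, 1781 and 1552 CPM after injury, in the same order as TGFB1, and AIF1 was at 0 at 14 and 30 dpi. Their part in the TGFB1 level of T cell-like nuclei was not tested. Astrocyte-like nuclei held 13.0, 11.98 and 10.5 CPM in the intact segments and 37.0, 33.5, 33.7 and 16.3 CPM after injury. The first 3 injured libraries met the rule, with ratios of 3.52 [2.25 to 5.38], 3.19 [2.26 to 4.47] and 3.20 [2.24 to 4.54], and the 6-month library did not. The 7 microglia markers in astrocyte-like nuclei summed to 42.5, 82.1 and 16.4 CPM in intact cord and to 306, 230, 149 and 80.2 CPM after injury. Their part in the TGFB1 level of these nuclei was not tested. With the 25% of astrocyte-like nuclei richest in foreign markers left out, the log2 ratio at 30 dpi was 0.23 instead of 1.68 and the rule was met at 7 and 14 dpi only. Oligodendrocyte-like nuclei held 7.57 to 7.93 CPM in intact cord and 8.81, 10.6, 12.8 and 24.5 CPM after injury, with the rule met at 6 months alone. OPC-like nuclei held 2.49 to 11.2 CPM in intact cord and 4.48 to 9.35 CPM after injury, all within the intact range.

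TGFB2 (ENSMMUG00000004071, chr1:75840393-75937710, plus strand) encodes the ligand best known from glia and neurons. Astrocyte-like nuclei held 312, 244 and 302 CPM in intact cord and 476, 264, 237 and 239 CPM after injury, so that the 7 dpi library stood above and the 30 dpi and 6-month libraries just below the intact range. None of these reached 2-fold. Intact thoracic cord, the low end of that range, was also lowest of the 3 intact libraries for LTBP1 and BMPR1B in these nuclei. Its astrocyte-like nuclei held 3163 CPM of summed oligodendrocyte markers. Those of intact cervical and lumbar cord held 764 and 277 CPM, and the injured ones 421 to 1682 CPM. The part of such RNA in these levels was not tested. Microglia-like nuclei, with far lower levels, held 18.1, 29.1 and 15.1 CPM in intact cord and 53.1, 27.3, 68.8 and 56.1 CPM after injury. The 14 dpi library lay within the intact range, and the other 3 met the rule at 3.51-fold [2.88 to 4.31], 4.55-fold [3.75 to 5.56] and 3.71-fold [2.99 to 4.63]. At 6 months the log2 ratio was 1.89 as reported, 1.11 without the 2 clusters led by GPNMB and 0.94 with each nucleus named alone, the last under the limit. With each nucleus thinned at random to 1000 UMIs, the share of microglia-like nuclei with a TGFB2 UMI was 1.65%, 2.30% and 1.53% in intact cord and 5.29%, 2.34%, 5.40% and 4.57% after injury. Unthinned it was 5.63%, 8.23% and 3.93% and then 14.4%, 7.27%, 21.7% and 10.3%, so that 14 dpi lay below intact thoracic cord. Different clusters held most microglia-like nuclei in these libraries, cluster 1 in each intact library (84.9% to 94.1%) and clusters 5, 3, 11 and 15 in turn after injury (84.4%, 88.2%, 58.1% and 50.9%). Summed astrocyte markers in microglia-like nuclei were at 842, 713 and 1026 CPM in the intact libraries and at 630, 463, 719 and 971 CPM after injury, lowest at 14 dpi, as TGFB2 was among the injured libraries. Their part in the TGFB2 level was not tested.

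LTBP1 (ENSMMUG00000021436, chr13:75530999-75980724, minus strand) encodes a latent TGF-beta binding protein of the extracellular matrix. Its level in astrocyte-like nuclei was 326, 253 and 313 CPM in intact cord and 340, 293, 271 and 169 CPM after injury. The 6-month library stood below all others, at a ratio of 0.541 [0.444 to 0.653] to intact lumbar cord, short of the 2-fold limit. OPC-like nuclei held 155, 163 and 158 CPM in intact cord and 153, 91.2, 115 and 139 CPM after injury, with the lowest value at 14 dpi. Ependymal-like nuclei, counted in 4 libraries, held 314, 239 and 271 CPM in intact cord and 225 CPM at 14 dpi. The calls for LTBP1 lay at low levels, higher in oligodendrocyte-like nuclei at 7 and 14 dpi (11.1 and 6.92 CPM against 3.45 to 4.27 in intact cord, the latter call lost without cluster 14, described below, at 4.39 CPM and a log2 ratio of 0.99) and lower in microglia-like nuclei at 30 dpi and 6 months (1.43 and 1.12 CPM against 3.51 to 4.21).

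TGFBR1 (ENSMMUG00000001304, chr15:43763472-43812747, minus strand), the type I receptor for TGF-beta, was at 840, 856 and 880 CPM in microglia-like nuclei of intact cord and at 1137, 929, 1111 and 893 CPM after injury. All 4 injured libraries lay above the intact range, by ratios of 1.02 to 1.29 to intact lumbar cord, none near 2-fold. At 6 months the log2 ratio of 0.022 lay below the median of 0.24 over all genes tested in this class. OPC-like and neuron-like nuclei were at 67.7 to 90.6 and 53.0 to 62.4 CPM over all 7 libraries. TGFBR1 met the rule at 6 months alone in astrocyte-like nuclei (83.2 CPM against 40.1 in intact lumbar cord) and in oligodendrocyte-like nuclei (81.5 CPM against 31.9). The oligodendrocyte-like calls of TGFB1 and TGFBR1 at 6 months rested on 1 cluster, cluster 14, described below with TGFBR2. Without it TGFB1 was at 9.53 CPM at 6 months against 6.76 in intact lumbar cord, and TGFBR1 at 38.5 against 30.6 CPM.

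TGFBR2 (ENSMMUG00000010031, chr2:17035106-17123221, minus strand), the type II receptor that binds the ligand, was at 596, 550 and 674 CPM in microglia-like nuclei of intact cord. It was at 892, 1068 and 1133 CPM at 7, 14 and 30 dpi and at 619 CPM at 6 months. The first 3 injured libraries stood above the intact range at 1.32-fold, 1.58-fold and 1.68-fold, and the 6-month library lay within it. T cell-like nuclei held 368 CPM in intact thoracic cord and 416, 649 and 481 CPM at 7, 14 and 30 dpi. Summed microglia markers in the same nuclei were at 1224 CPM and then at 2417, 1781 and 1552 CPM. Their part in the TGFBR2 level of T cell-like nuclei was not tested. Against microglia-like and T cell-like nuclei, the other classes held little TGFBR2, and it was in these other classes that the rule was met.

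In astrocyte-like nuclei TGFBR2 was at 4.54, 6.55 and 2.18 CPM in intact cord and at 72.7, 39.2, 43.7 and 20.8 CPM after injury. The injured libraries all stood above the intact ones, by 33.4-fold [19.3 to 61.0], 18.0-fold [10.5 to 32.5], 20.1-fold [11.7 to 36.2] and 9.55-fold [4.36 to 20.6] relative to intact lumbar cord. These ratios rest on 17 UMIs in intact lumbar cord and on 61, 75, 74 and 14 UMIs after injury, found in 21 of 100, 22 of 257, 14 of 155 and 4 of 122 nuclei. With each nucleus thinned to 1000 UMIs, TGFBR2 met the rule in 2 libraries and no longer in all 4. With no doublets removed the log2 ratios were 2.68, 3.13, 2.55 and 1.83, against 5.06, 4.17, 4.33 and 3.26 as reported. The 7 microglia marker genes moved with it. Their summed level in astrocyte-like nuclei was 42.5, 82.1 and 16.4 CPM in intact cord and 306, 230, 149 and 80.2 CPM after injury, with UMIs of all 7 markers in every library except intact lumbar cord, where AIF1 was at 0.

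The level of a gene in another class can be set against its level in microglia-like nuclei of the same library. For the 7 microglia markers in astrocyte-like nuclei this share was 0.701%, 1.39% and 0.266% in intact cord and 5.02%, 3.96%, 3.34% and 2.24% after injury. For TGFBR2 it was 0.762%, 1.19% and 0.323% in intact cord and 8.16%, 3.68%, 3.85% and 3.36% after injury, close to the markers in each library and above them most at 7 dpi and 6 months. After leaving out the 25% of nuclei in each class with the most foreign markers, the log2 ratios for TGFBR2 were 5.15, 3.14, 2.07 and 3.68. The part of microglial RNA in the TGFBR2 counts of astrocyte-like nuclei was not tested beyond these values.

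In oligodendrocyte-like nuclei TGFBR2 was at 2.05, 3.41 and 2.06 CPM in intact cord and at 4.01, 10.9, 14.7 and 37.6 CPM after injury, with ratios of 1.95 [1.37 to 2.80], 5.32 [3.89 to 7.38], 7.14 [5.35 to 9.69] and 18.3 [13.7 to 24.8]. Intact and injured nuclei of this class fell in different clusters. Clusters 2, 7 and 9 held most of the intact nuclei, and clusters 0 and 8 most of the injured ones, with cluster 0 alone at 51.4% to 64.8% of an injured library's class and at 41, 10 and 64 nuclei in the intact libraries. Much of the TGFBR2 lay in cluster 14, which counted 1356 oligodendrocyte-like nuclei and had a low median depth of 2063 UMIs. It held 322 of the 407 TGFBR2 UMIs of the class at 30 dpi and 350 of 381 at 6 months, and its summed microglia markers were at 119, 413 and 223 CPM in intact cord and at 403, 927, 1193 and 1545 CPM after injury. In the other oligodendrocyte-like nuclei TGFBR2 was at 1.71, 1.72 and 1.37 CPM in intact cord and at 3.39, 3.48, 3.20 and 3.56 CPM after injury. There the rule was met in all 4 libraries, between intact nuclei of clusters 2, 7 and 9 and injured nuclei of clusters 0 and 8, with microglia markers at 8.12 to 13.3 CPM in intact cord and 19.6 to 39.2 CPM after injury.

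OPC-like and neuron-like nuclei gave lower levels of TGFBR2. OPC-like nuclei held 10.7, 3.33 and 1.66 CPM in intact cord and 2.49, 13.2, 8.15 and 12.9 CPM after injury, from 5 to 27 UMIs per injured library, and 14 dpi and 6 months met the rule. As a share of the microglia-like level this was 1.80%, 0.605% and 0.247% in intact cord and 0.279%, 1.24%, 0.719% and 2.08% after injury, below the 7 microglia markers in every library (1.84%, 1.01% and 0.744%, then 1.06%, 1.45%, 1.77% and 2.60%). Neuron-like nuclei held 5.87, 7.15 and 4.76 CPM in intact cord and 8.90, 12.3, 17.0 and 11.4 CPM after injury. All 4 injured libraries stood above the intact ones, and the ratio was under 2-fold at 7 dpi only. As a share of the microglia-like level, TGFBR2 in neuron-like nuclei went from 0.706% to 1.30% in intact cord and from 0.998% to 1.84% after injury, beside 0.465% to 0.810% and 0.949% to 1.53% for the 7 microglia markers.

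**Figure D3:**
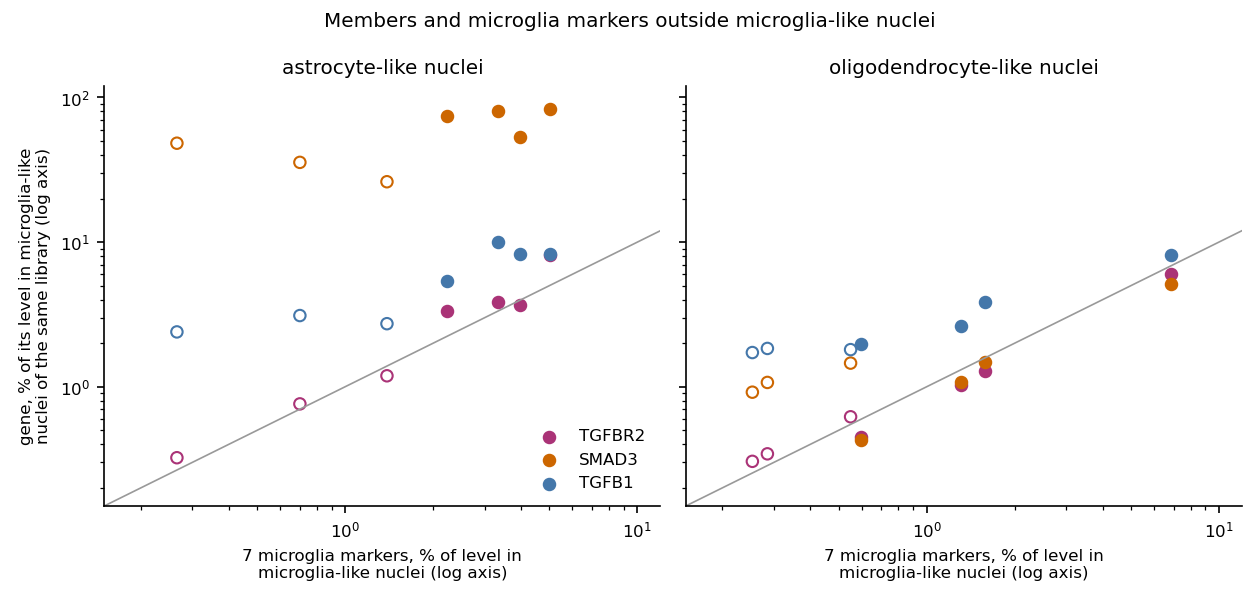
Level of TGFBR2, SMAD3 and TGFB1 in astrocyte-like and oligodendrocyte-like nuclei (y axis) against the summed level of 7 microglia markers in the same nuclei (x axis), each as a percentage of its level in microglia-like nuclei of the same library, on log axes, with open points for intact and filled points for injured libraries and a line where both are equal. TGFBR2 lies near the line in both classes, and SMAD3 in astrocyte-like nuclei lies far above it, at 53.4% to 83.4% after injury where the markers are at 2.24% to 5.02%.

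BMPR1B (ENSMMUG00000006702, chr5:93131675-93525753, plus strand), a type I receptor for BMPs, was found mainly in astrocyte-like and ependymal-like nuclei. Astrocyte-like nuclei held 551, 464 and 564 CPM in intact cord and 456, 648, 670 and 575 CPM after injury, with a UMI in 80.3% to 94.2% of nuclei. Injured and intact libraries overlapped, and the ratios to intact lumbar cord lay between 0.808 and 1.19. Ependymal-like nuclei held 186, 186 and 249 CPM in intact cord and 447 CPM at 14 dpi. The other main classes stayed at or below 20.2 CPM in all 7 libraries.

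SMAD2 (ENSMMUG00000007816, chr18:34543595-34640592, plus strand), which carries the TGF-beta and activin signal, differed little. Microglia-like nuclei held 226, 217 and 211 CPM in intact cord and 182, 200, 216 and 207 CPM after injury. Over the 5 main classes the ratios to intact lumbar cord ranged from 0.740 to 1.31. SMAD7 (ENSMMUG00000056276, chr18:33496865-33528083, plus strand), the inhibitory SMAD, was at 134, 124 and 112 CPM in microglia-like nuclei of intact cord and at 151, 208, 171 and 108 CPM after injury. It was above the intact range at 7, 14 and 30 dpi, most at 14 dpi with 1.86-fold, and below it at 6 months. In the other main classes SMAD7 lay between 12.9 and 31.0 CPM, with no call.

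SMAD3 (ENSMMUG00000015455, chr7:43702127-43832675, plus strand), the partner of SMAD2 that binds DNA directly, stood above the intact range in all 4 injured libraries in astrocyte-like, microglia-like and, by a smaller ratio, OPC-like nuclei. In astrocyte-like nuclei it was at 43.5, 40.9 and 57.2 CPM in the intact libraries, from 374, 806 and 446 UMIs. After injury it was at 250, 141, 213 and 135 CPM, from 210, 270, 361 and 91 UMIs. Every injured library stood above every intact one, by 4.38-fold [3.70 to 5.17], 2.47-fold [2.12 to 2.88], 3.73-fold [3.24 to 4.29] and 2.37-fold [1.87 to 2.97] relative to intact lumbar cord.

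The share of astrocyte-like nuclei with a SMAD3 UMI, at 1000 UMIs per nucleus, was 4.50%, 4.08% and 4.12% in intact cord and 17.0% [10.2 to 25.8], 8.17% [5.13 to 12.2], 16.1% [10.7 to 22.9] and 11.5% [6.42 to 18.5] after injury. Without thinning it was 26.0%, 27.0% and 25.8% and then 55%, 39.3%, 63.2% and 38.5%. The intervals of the 4 injured thinned shares left out all 3 intact shares of this class, taken as point values without their own intervals. These intervals cover counting of nuclei within a library, and nuclei of a library are not replicates. Oligodendrocyte-like nuclei, which held little SMAD3, gave thinned shares of 0.106% to 0.576%. Microglia markers were also higher in astrocyte-like nuclei after injury (above). The SMAD3 level there was 35.6%, 26.1% and 48.3% of that in microglia-like nuclei in intact cord and 83.4%, 53.4%, 80.2% and 74.5% after injury, where the markers, summed, reached at most 5.02%. Of the single markers AIF1 reached 35.02% at 7 dpi and 25.9% at 30 dpi, CX3CR1 8.24% at 7 dpi, and the other 5 at most 5.73% in any library. After leaving out the 25% of nuclei with the most foreign markers the log2 ratios were 2.26, 1.33, 1.77 and 1.47, and SMAD3 met the rule in all 4 libraries under each of the 11 alternative settings run. Some of these could not have undone a call. The 1.5-fold limit and the dropped minimum of UMIs only loosen the rule. Intact lumbar cord was the highest of the 3 intact libraries for SMAD3, so their mean as reference could only raise its ratios. The median gene of this class moved by at most 0.16 on the log2 scale. The lowest SMAD3 ratio was 1.24 against a limit of 1, so centring on the median gene could not undo a call. The first naming rule gave the same 155 of 11718 genes in this class.

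Astrocyte-like nuclei came mainly from clusters 10 and 13, whose shares differed between libraries, so SMAD3 was also read within each. In cluster 10 it was at 35.9, 37.6 and 48.7 CPM in intact cord and at 224, 84.2 and 181 CPM at 7, 14 and 30 dpi. In cluster 13 it was at 53.3, 58.1 and 63.7 CPM in intact cord and at 169, 271 and 158 CPM at 14 dpi, 30 dpi and 6 months. Cluster 10 at 6 months and cluster 13 at 7 dpi had under 50 nuclei and were not read. Each injured library that was read stood above all 3 intact ones.

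In microglia-like nuclei SMAD3 was at 122, 156 and 118 CPM in intact cord and at 300, 264, 266 and 181 CPM after injury. All 4 injured libraries stood above the intact range, at 2.54-fold [2.36 to 2.73], 2.23-fold [2.08 to 2.40], 2.24-fold [2.09 to 2.41] and 1.53-fold [1.40 to 1.68], the last under the 2-fold limit. The thinned share of nuclei with a UMI was 10.7%, 13.8% and 10.7% in intact cord and 22.4%, 22.3%, 19.7% and 16.5% after injury. The 2 clusters that made up the intact class, 1 and 24, were at 108 to 158 CPM. Of the clusters found after injury, cluster 23, led by genes of cell division with 455 of its 533 nuclei from 7 dpi, was highest at 386 CPM, and clusters 3, 5, 11 and 12 were between 165 and 306 CPM. Cluster 15, led by GPNMB and found at 6 months, was at 176 CPM. At 6 months cluster 5 was at 179 CPM against 280 CPM at 7 dpi. Endothelial markers in microglia-like nuclei were at 801 to 847 CPM in intact cord and at 1517, 831, 838 and 846 CPM after injury. VWF, one of these markers, was among the leading genes of cluster 5. Whether the endothelial markers bear on SMAD3 was not tested.

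**Figure D4:**
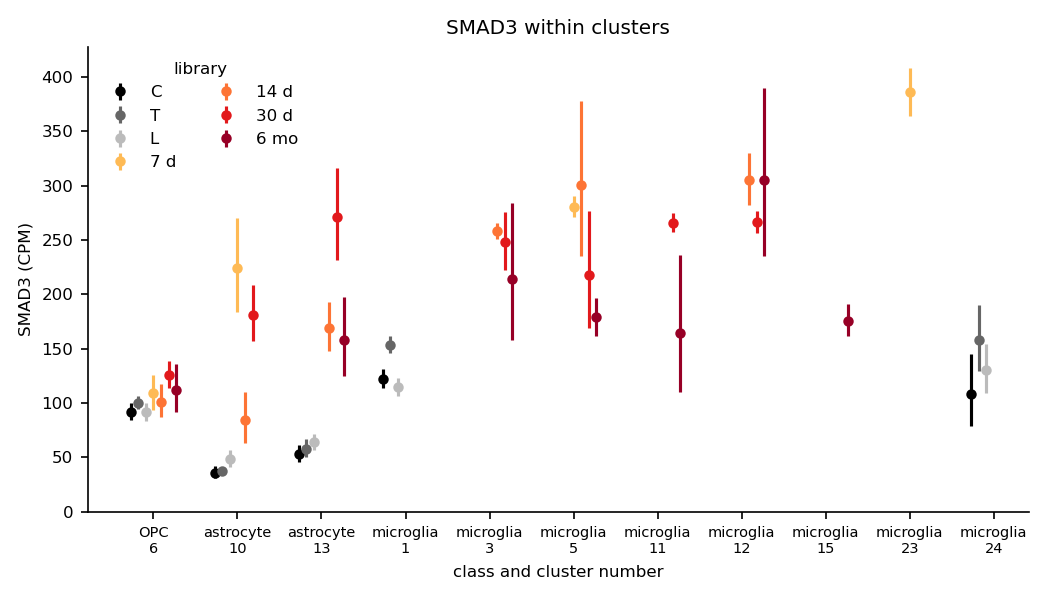
SMAD3 level (CPM, linear axis) in each cluster of OPC-like, astrocyte-like and microglia-like nuclei with enough nuclei in a library, 1 point per library with its exact Poisson 95% interval, intact segments in black and greys and injured libraries in yellow to dark red. Injured points lie above intact points in astrocyte clusters 10 and 13, points of OPC cluster 6 differ far less between libraries, and intact and injured microglia-like nuclei fall in different clusters.

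In OPC-like nuclei SMAD3 was at 91.8, 99.9 and 91.6 CPM in intact cord and at 109, 100, 125 and 112 CPM after injury. All 4 injured libraries again stood above the intact range, though at 1.19-fold [1.01 to 1.40], 1.10-fold [0.914 to 1.31], 1.36-fold [1.19 to 1.56] and 1.23-fold [0.983 to 1.52] intact lumbar cord, none at 2-fold, and the intervals at 14 dpi and 6 months included 1. Neuron-like nuclei held 2.93 to 7.03 CPM over the 7 libraries. Oligodendrocyte-like nuclei held 1.31, 2.28 and 1.09 CPM in intact cord and 1.29, 2.84, 3.97 and 9.37 CPM after injury, and the last 3 libraries met the rule. Without cluster 14 they held 1.07, 1.63 and 0.643 CPM and then 1.21, 1.03, 1.43 and 1.26 CPM, all 4 within the intact range.

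BMPER (ENSMMUG00000017232, chr3:80896797-81142091, minus strand) encodes a secreted protein with repeats of the chordin type that binds BMPs and modulates their signal. In OPC-like nuclei it was at 152, 171 and 144 CPM in intact cord and at 276, 397, 775 and 282 CPM after injury. Every injured library stood above the intact range, at 1.91-fold [1.71 to 2.14], 2.75-fold [2.47 to 3.06], 5.37-fold [4.93 to 5.84] and 1.95-fold [1.69 to 2.25], and 14 and 30 dpi passed 2-fold. The call at 30 dpi did not hold under every setting. Its log2 ratio, 2.42 as reported, was 0.98 with no doublets removed, 0.99 at the finer clustering and 0.92 with the nuclei richest in foreign markers left out, all under the 2-fold limit, and 1.04 with each nucleus named alone. The thinned share of OPC-like nuclei with a BMPER UMI was 11.8%, 10.5% and 12.1% in intact cord and 22.7%, 26.2%, 24.6% and 23.9% after injury, and the unthinned share was 40.6%, 36.2% and 36.8% and then 60.6%, 76.7%, 70.3% and 55.8%. In oligodendrocyte-like nuclei the thinned share was 0.262% to 1.40%. By share of nuclei the 4 injured libraries lay within each other's intervals, and the 30 dpi library stood out by its level over all OPC-like nuclei alone.

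The 30 dpi level came from few nuclei. The 33 nuclei with the most BMPER UMIs held 2000 of 2568 UMIs there, 77.9%, and a single nucleus held 375. With the 10% of nuclei richest in BMPER left out of every library the level was 65.1, 61.6 and 65.7 CPM in intact cord and 195, 267, 205 and 196 CPM after injury. These nuclei were left out by the counts of the gene compared, which a smaller share of intact than of injured nuclei carried. The values are therefore a description and not a check of the difference. Of the 33 OPC-like nuclei with at least 20 BMPER UMIs over all libraries, 27 also had at least 5 UMIs of ENPP6, a gene known from newly forming oligodendrocytes. That cut was chosen after the values were seen. It took 71 OPC-like nuclei, 7, 42 and 5 in the intact libraries and 0, 3, 14 and 0 after injury, and left 3909, and 150 nuclei lay within 2 UMIs of it. By library they held 878, 833 and 1475 CPM of BMPER in intact cord and 1220 and 6281 CPM at 14 and 30 dpi, and the 14 nuclei at 30 dpi held 1758 of their 2803 BMPER UMIs. Pooled, the 71 nuclei held 5875 against 546 CPM of summed oligodendrocyte markers, and 9898 against 16669 CPM of summed OPC markers. They were also deeper, with a median of 15798 against 6455 UMIs per nucleus, and the cut took no account of depth. ENPP6 was also a leading gene of oligodendrocyte-like cluster 9, which held 1196, 1001 and 938 nuclei in the intact libraries. Which kind of nuclei passed the cut was not tested. The marker differences were those of the cervical, thoracic and 30 dpi nuclei. In the 5 nuclei of intact lumbar cord oligodendrocyte markers were at 362 against 299 CPM and OPC markers at 20294 against 16652 CPM, and in the 3 nuclei at 14 dpi they were at 751 against 272 CPM and 17669 against 19856 CPM.

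With the nuclei past the ENPP6 cut left out, BMPER in OPC-like nuclei was at 116, 122 and 122 CPM in intact cord and at 276, 377, 267 and 282 CPM after injury. All 4 injured libraries then met the rule, at 2.27-fold [2.01 to 2.55], 3.09-fold [2.76 to 3.47], 2.19-fold [1.97 to 2.44] and 2.31-fold [1.99 to 2.68], and the 30 dpi ratio was then no longer the highest. At 7 dpi and 6 months the cut took 0 nuclei, so the level there was unchanged. Those ratios rose because intact lumbar cord fell from 144 to 122 CPM without its 5 nuclei, which held 118 BMPER UMIs. The calls gained there follow from a cut chosen after the values were seen and are not support for a difference. The nuclei past the cut were too few, and too unlike in their markers, to be compared between libraries. OPC-like nuclei came from cluster 6 in every library, at 90.9% to 99.9%. Neuron markers in them were at 466 to 598 CPM in intact cord and at 208, 209, 438 and 244 CPM after injury. Both the neuron markers and BMPER were highest among the injured libraries at 30 dpi, and the part of neuronal RNA in the BMPER counts was not tested.

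**Figure D5:**
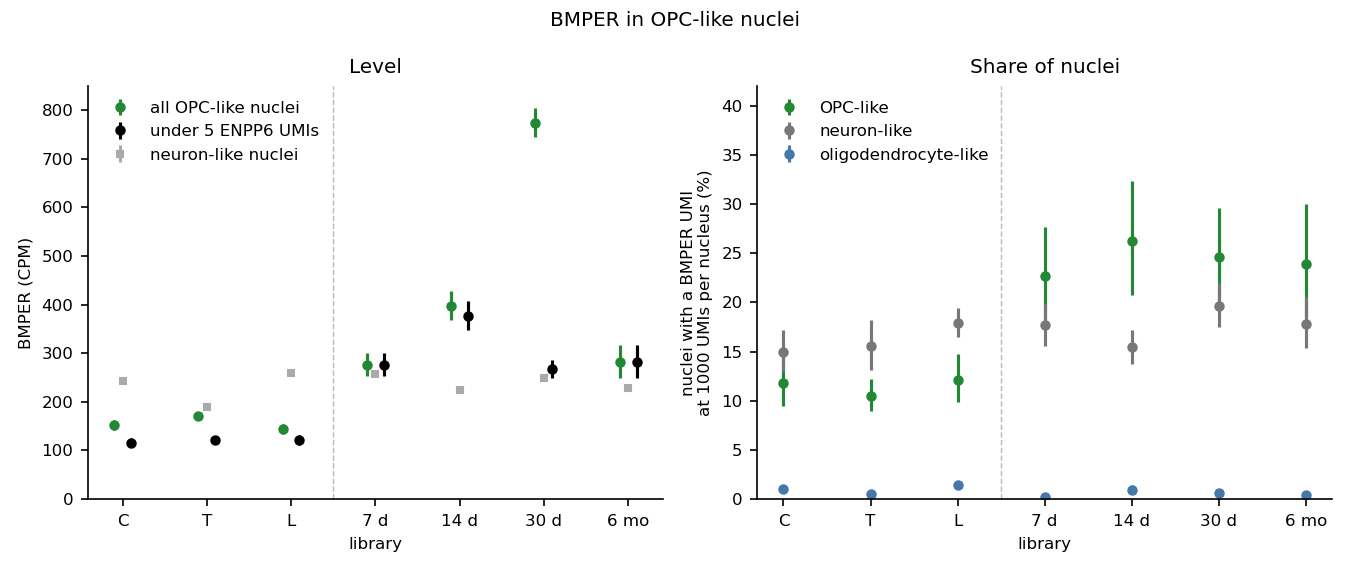
BMPER level (CPM, left) in all OPC-like nuclei, in those with under 5 ENPP6 UMIs and in neuron-like nuclei, and share of nuclei with a BMPER UMI at 1000 UMIs per nucleus (%, right), by library, with exact 95% intervals as bars. The 30 dpi point falls from 775 to 267 CPM without the ENPP6-rich nuclei, and the OPC-like shares are 10.5% to 12.1% in intact and 22.7% to 26.2% in injured libraries.

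Neuron-like nuclei held 243, 189 and 260 CPM of BMPER in intact cord and 257, 224, 248 and 229 CPM after injury, all within the intact range. The level varied more among neuron-like clusters than among libraries, from 32.8 CPM in a cluster led by DNAH8 and NPY to 307 CPM in the largest, cluster 4, and 311 CPM in one led by DKK2, a range fixed in part by how the clusters were drawn. Astrocyte-like nuclei held 5.47, 4.42 and 6.15 CPM in intact cord and 0, 3.66, 8.27 and 66.9 CPM after injury. The rule was met downwards at 7 dpi, from 0 UMIs, and upwards at 6 months, where 38 of the 45 UMIs lay in 1 nucleus. In the 100 nuclei at 7 dpi, 3 UMIs would have been 3.58 CPM, which is a fixed floor and not the limit of an interval. Oligodendrocyte-like nuclei held 5.05, 4.21 and 7.33 CPM in intact cord and 3.04, 6.49, 7.50 and 5.32 CPM after injury, lower by the rule at 7 dpi alone.

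The pathway was followed beyond the members with a list of 77 further genes found in the libraries, grouped by role. In all 4 injured libraries, 2 of 57 tested were higher in oligodendrocyte-like, 1 of 45 in OPC-like, 0 of 53 in astrocyte-like, 2 of 52 in microglia-like and 0 of 75 in neuron-like nuclei, and 1 was lower, in microglia-like nuclei. Over all genes tested the shares higher were 1.8%, 0.497%, 1.32%, 2.2% and 0.884% in that order, and 1.37% were lower in microglia-like nuclei, and nothing is read about the list from counts of so few genes. ID2, a classical BMP target that inhibits differentiation factors, was higher in 3 classes. It went from 11.6 CPM in intact lumbar cord to 91.7, 37.7, 83.8 and 80.8 CPM in microglia-like nuclei, and from 6.23 to 32.3, 13.8, 16.3 and 22.5 CPM in OPC-like nuclei. In oligodendrocyte-like nuclei it went from 0.893 to 3.64, 2.04, 3.17 and 4.34 CPM, while the 7 microglia markers summed in the same nuclei went from 15.6 to 36.4, 76.0, 70.7 and 246 CPM. Without cluster 14, which was left out after the values were seen, ID2 was at 0.819, 0.791 and 0.483 CPM in intact cord, the last from 12 UMIs, and at 3.62, 1.74, 2.11 and 2.18 CPM after injury, and the microglia markers were at 13.1, 13.3 and 8.12 CPM and then 34.1, 39.2, 19.6 and 31.5 CPM. The part of microglial RNA in these ID2 counts was not tested.

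TGFBR3, a co-receptor that presents TGF-beta ligands and is also called betaglycan, was the other gene higher in oligodendrocyte-like nuclei. Its level was 1.00, 1.48 and 1.28 CPM in intact cord and 49.8, 9.27, 10.9 and 24.5 CPM after injury, at ratios from 7.24 to 38.9, with a UMI in 613 of 3812 nuclei at 7 dpi, and the intact and injured nuclei were those of different clusters, as above. Without cluster 14 it was at 0.992, 1.16 and 1.09 CPM and then 49.9, 9.16, 10.9 and 25.6 CPM. In microglia-like nuclei FSTL3, a secreted binder of activins, was higher from 3 UMIs in intact lumbar cord (0.405 CPM, then 1.61 to 5.74 CPM), and ENG, a co-receptor of TGF-beta family ligands, was lower, from 23.2 CPM to 11.6, 11.1, 7.35 and 6.70 CPM. SMAD4, the shared partner of the signalling SMADs, stayed within 95.1 to 114 CPM in astrocyte-like nuclei over all libraries. BMPR2, the type II receptor that pairs with BMPR1B, was at 272 to 315 CPM in the same nuclei.

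Over the 35 pairs of a main class and a library, the named genes whose log2(CPM + 1) followed SMAD3 most closely among 16241 genes were FAM89A (Pearson's r = 0.973), RAB31 (0.958), NOTCH2 (0.955), FNDC3B (0.945) and ADRB1 (0.939). For BMPER they were HECW1 (r = 0.976), RIT2 (0.973), NXPH1 (0.963), PRICKLE1 (0.962) and XKR4 (0.961). The points share libraries and are set mostly by differences between classes, so the values are a description only. None of the 10 genes belongs to the pathway list.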

How the data were processed

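The authors isolated nuclei, prepared 1 10x Chromium library per group and deposited a matrix of UMI counts per library, which the file headers credit to Cell Ranger 6.0.0. The study's methods name Mmul_10 as the genome. Whether intron reads were counted, and the annotation release, are not given in the sources used here. The deposited counts were whole numbers, not normalised, and no barcode had under 500 UMIs. The study's own doublet removal and integration were not rerun.

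Counts of identifiers sharing a symbol were summed (35432 identifiers, 28966 genes). As in the study, a barcode needed more than 500 genes and 1000 UMIs and less than 10% mitochondrial and 5% hemoglobin UMIs. The highest 5% by a simulated-doublet score were removed per library (3351 nuclei). Log-scaled counts of 2000 variable genes gave 30 principal components, a graph of 20 neighbours and 41 Leiden clusters (leidenalg 0.10.2, resolution 1). Clusters were named from fixed marker lists. The naming rule was changed after the data were seen, since the first rule left the 2 clusters led by GPNMB unnamed, and it asks for at least 3 markers each seen in 10% of nuclei. Unnamed nuclei were 0.142% to 1.85% of a library. Libraries held 45079131 to 150987900 UMIs. Free RNA was not subtracted.

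UMIs were summed per class and library, in classes with at least 50 nuclei. Genes with at least 50 UMIs in a class over the 5 lumbar libraries entered the 2-fold rule. Intervals are exact Poisson for levels, exact binomial for shares and exact conditional binomial for ratios, and cover counting error only. All 10 members are named, and of the other pathway genes those past the rule in all 4 injured libraries and a few receptor and SMAD partners. The members, the pathway list and the markers were chosen with earlier results of these data known. Scripts used Python 3.11.15, numpy 2.4.6, scipy 1.17.1 and pandas 2.3.3 and were tested on simulated data. Positions of genes follow RefSeq on Mmul_10. No sequences are printed.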

Additional observations from a re-analysis of the deposited data

How the results depend on the processing

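No paired analysis was possible because each group had 1 library. The 10 counts of members higher or lower in all 4 injured libraries were recomputed under 154 combinations of count and setting, and 136 stayed within 1.5 times the reported count. Every reported count but that of members higher in astrocyte-like nuclei was 0, so there the limit meant a count still at 0. The share that stayed therefore says little about stability. The 18 that moved were all counts of members higher. The counts of members lower stayed at 0 under every setting run. In oligodendrocyte-like nuclei the count of members higher was 0 as reported and 1 with no doublets removed, at resolution 2, with the 25% of nuclei richest in foreign markers left out or without cluster 14, and 2 at a 1.5-fold limit or when 7 dpi was not asked for. In OPC-like nuclei it was 0 as reported and 1 (BMPER) with nuclei thinned, as a mean over nuclei, at a 1.5-fold limit or without the nuclei past the ENPP6 cut. In astrocyte-like nuclei it was 2 as reported, 1 (SMAD3) with nuclei thinned, and 3 (TGFB1 in addition) with each nucleus named alone or without 6 months. In microglia-like nuclei it was 0 as reported and 1 at a 1.5-fold limit (SMAD3), without 14 dpi (TGFB2) or without 6 months (SMAD3). In neuron-like nuclei it was 0 as reported and 1 (TGFBR2) with no doublets removed, as a mean over nuclei, at a 1.5-fold limit or without 7 dpi. The setting with the first naming rule and those on single injured libraries, on cluster 14 and on ENPP6 were chosen after the data were seen. Of 1826 recomputed log2 ratios, 1419 stayed inside the counting interval of the reported value and 406 did not. The other 1 had met the 2-fold rule and changed sign. It was BMPER in astrocyte-like nuclei at 6 months, at -0.54 with no doublets removed, where 1 nucleus held most of the UMIs. Sign changes of values that had not met the rule were not counted apart from the 1419 and 406. Ratios centred on the median gene moved by at most 0.24 on the log2 scale. The precision is limited by 100 to 257 astrocyte-like nuclei per injured library and by the 6-month library, the shallowest.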
